A study of Mus musculus with 6 samples.

Results

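Cytokine messages are short-lived, and 10 genes whose proteins set how fast such messages are degraded were followed in mouse articular chondrocytes given semaphorin 4D (Sema4D). They are the zinc finger genes Zfp36, Zfp36l1 and Zfp36l2, the ribonuclease genes Zc3h12a and Zc3h12c, the roquin genes Rc3h1 and Rc3h2, and the genes of the AU-rich element binding proteins HuR (Elavl1), KSRP (Khsrp) and AUF1 (Hnrnpd). They were taken by symbol from a table of 24346 gene symbols, and all 10 were found. RNA-seq was done on primary cartilage chondrocytes of ICR mice at postnatal day 4, in 3 libraries from cells stimulated with Sema4D, a ligand of plexin-B receptors, and in 3 libraries from cells without it. The labels name no genetic alteration in either group and give neither the dose nor the duration of the stimulus. They do not say whether the libraries of a group came from separate animals or cultures, and p-values therefore cover the variation among libraries only, which could be purely technical.

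Many cytokine and early response messages carry AU-rich elements or small stem-loops in the 3′ untranslated region (3′ UTR). Proteins of the ZFP36 family bind the AU-rich element and recruit the CCR4-NOT complex, which removes the poly(A) tail. The product of Zc3h12a, regnase, cuts stem-loops itself, and the roquins bind stem-loops and recruit CCR4-NOT. HuR competes for AU-rich sites and stabilises the message, whereas KSRP and most forms of AUF1 favour decay. Several of these factors are known to bind their own messages.

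Expression is given in FPKM, which corrects fragment numbers for transcript length and library size, so levels can be set side by side between genes. FPKM columns summed to 518901 to 527492 in the Sema4D libraries and to 492708 to 494123 in the control libraries, and the depth estimated from the steps of low values was 1.40e+07 to 1.67e+07 and 1.25e+07 to 1.62e+07 fragments. All 8 chondrocyte markers were detected and 7 fell, their sum being 10500 to 11300 FPKM with Sema4D and 12900 to 14000 FPKM without, with Col2a1 at 8400 to 9130 FPKM in Sema4D libraries and 10000 to 11000 FPKM in control libraries. Col2a1 made up most of that sum. The ratios of means, Sema4D over control, of the 7 ran from 0.531 (Hapln1) to 0.837 (Col2a1), and that of Prg4 was 1.06. Since ZFP36 proteins and regnase are also abundant in leukocytes, 11 macrophage and leukocyte markers were read. Of the 10 found, 3 were tested, of which none was past the threshold as higher and 2 fell (Lyz2 and Tyrobp). Among the 7 under the filter, the macrophage marker Adgre1 read 0.75, 0.706 and 0.563 FPKM with Sema4D, against 0.268, 0.264 and 0.0784 FPKM without, with no overlap. The summed level of the 10 was 20.4 to 22.4 FPKM with Sema4D and 23.0 to 30.5 FPKM without. The pan-leukocyte gene Ptprc stayed under 0.2 FPKM in every library, and Cd3e and S100a9 were listed at 0 in all 6. Of 6 fibroblast and perichondrium markers 2 rose and 3 fell (sum 6600 to 6900 FPKM with Sema4D and 7330 to 7850 FPKM without). Summed markers of osteoblasts, endothelium, muscle and erythroid cells were under 5 FPKM in every library. The part of these shifts in the results was not tested. In bulk RNA, fewer cells of a type and less RNA per cell cannot be told apart.

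Of the 10 genes, 6 were higher with Sema4D and none was lower at an adjusted p under 0.05 (limma, adjusted over the 11603 genes that averaged 1 FPKM or more). Over all genes tested 24.5% were higher and 22.2% lower, together 46.7%. Of those calls 52.4% were higher, but 38.8% after quantile normalization and 34.5% with libraries rescaled to one FPKM sum. The groups did not overlap for the same 6 of the 10 genes, all higher with Sema4D, against 29.6% of all genes tested higher in this way, 27.0% lower and 56.6% in either direction. After quantile normalization 5 of the 10 were higher and none lower (18.7% and 29.4% of all genes), and on one FPKM sum also 5 and none (17.3% and 32.8%). Against a minimum change of 1.2-fold 4 of the 10 were higher and none lower (8.85% and 6.09% of all genes). The median log2 fold change was 0.22 for the 10 genes and 0.01 for all genes tested. The responders covered a wide range, with Zc3h12a far above the rest, then Zfp36l1, Zc3h12c, Zfp36, Rc3h1 and Khsrp. All 10 genes passed the filter on low values, and none passed it through the Sema4D libraries alone.

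**Figure D1:**
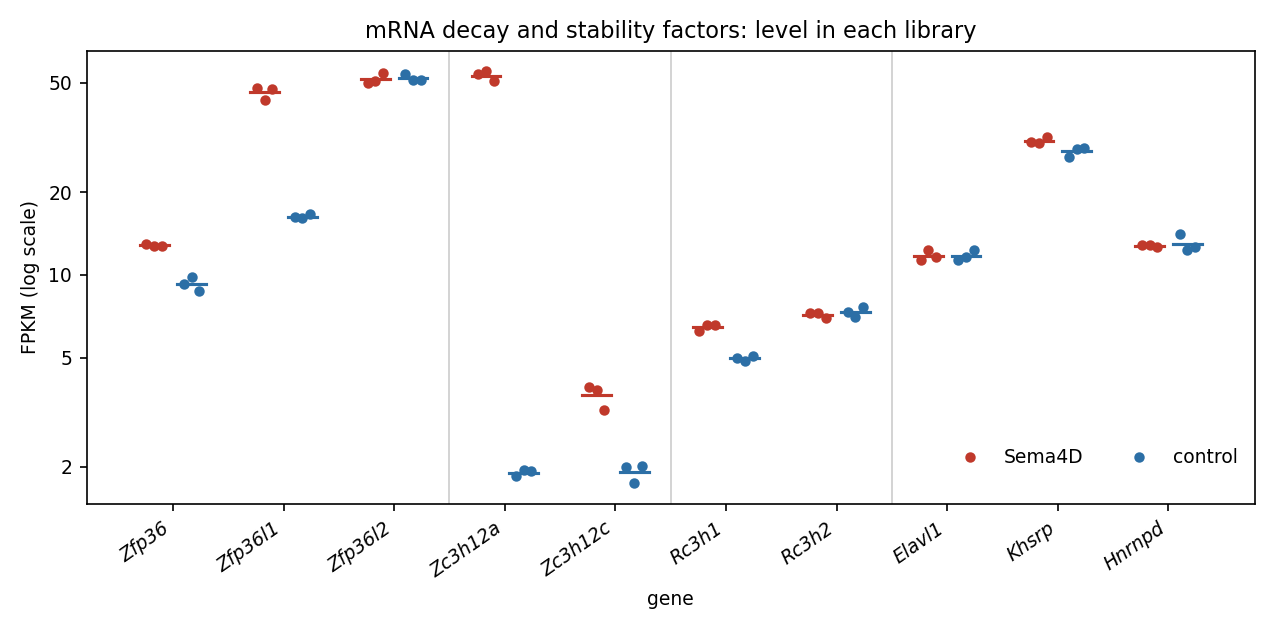
FPKM (log scale) of each of the 10 genes in the 3 Sema4D libraries (red) and the 3 control libraries (blue), with a bar at each group's mean and grey lines between families. Zc3h12a lies above 50 FPKM in Sema4D libraries and near 2 FPKM in control libraries, while Zfp36l2, Rc3h2, Elavl1 and Hnrnpd overlap between groups.

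**Figure D2:**
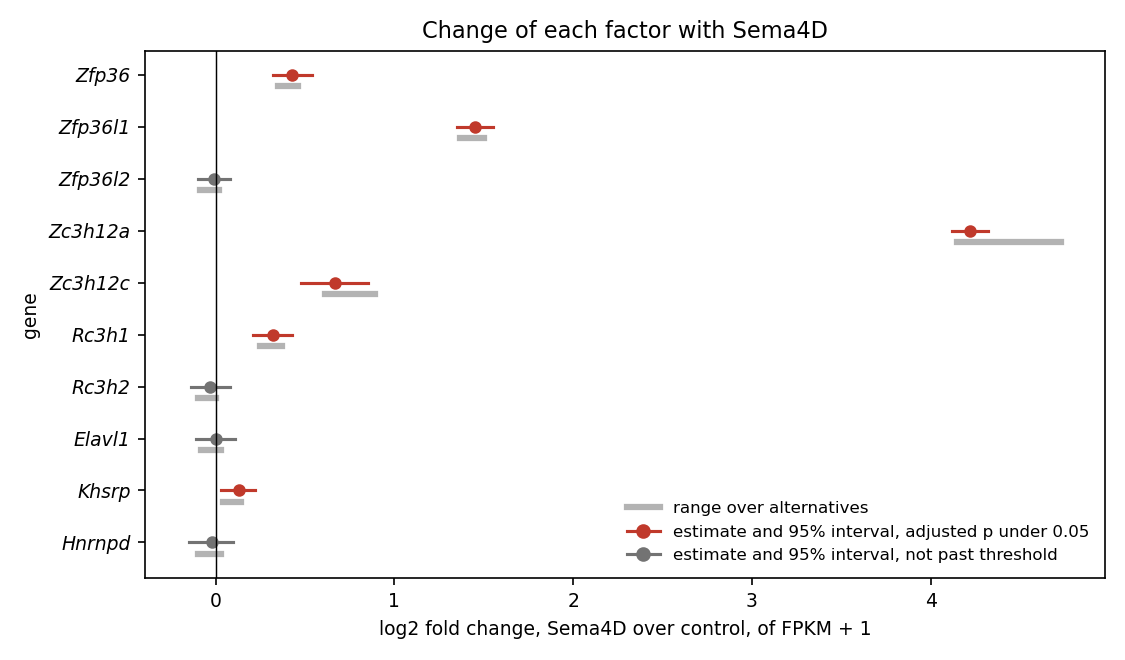
Log2 fold change of FPKM + 1, Sema4D over control, of each gene with its 95% interval (red, adjusted p under 0.05 by limma; grey, not past the threshold), with the range over the alternative settings as a pale bar below. Zc3h12a stands at 4.22, Zfp36l1 at 1.45 and the other 8 genes between -0.03 and 0.67.

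The ribonuclease gene Zc3h12a (ENSMUSG00000042677.7, chromosome 4, 125118423 to 125127840 on the minus strand in GRCm38, the assembly of mm10) had the largest response of the 10. It read 53.7, 55.1 and 50.8 FPKM in the Sema4D libraries, against 1.85, 1.94 and 1.93 FPKM in the control libraries. The groups lay far apart and the libraries within each were close. The ratio of means was 27.9, and the log2 fold change of FPKM + 1 was 4.22 (SE 0.044, limma adjusted p = 7.16e-11), the 30th largest rise of the 11603 genes tested. At the estimated depth and a transcript of 2755 bases, at least about 64 fragments lay behind each control value and 2000 behind each Sema4D value. By mean FPKM it was first of the 10 genes in Sema4D libraries, where its range overlapped that of Zfp36l2, and last in control libraries.

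Its relative Zc3h12c, which encodes another member of the regnase family (chromosome 9, 52111344 to 52168572, minus strand), rose much less. It read 3.9, 3.8 and 3.22 FPKM with Sema4D, against 2.0, 1.74 and 2.02 FPKM without, so the groups did not overlap and Sema4D replicate 3 was the lowest of its group. Its log2 fold change was 0.67 (SE 0.080, limma adjusted p = 0.000213), a ratio of means of 1.90. Zc3h12a made up 93.6% ± 0.401 of the pair's summed FPKM with Sema4D and 49.9% ± 2.49 without (SD, n = 3). Their sum averaged 56.9 ± 2.5 FPKM with Sema4D and 3.82 ± 0.136 FPKM without. The log2 ratio of Zc3h12a over Zc3h12c, each as FPKM + 1, was 3.48 to 3.62 in Sema4D libraries and -0.07 to 0.10 in control libraries, a difference of 3.55. A two-sided exact permutation test of 3 against 3 libraries gave p = 0.1, the smallest it can give, and that p was 0.1 after adjustment over the 5 within-family ratios tested.

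In the ZFP36 family the change sat mainly in Zfp36l1 (ENSMUSG00000021127.7, chromosome 12, 80107754 to 80113013, minus strand). Zfp36l1 read 47.9, 43.4 and 47.7 FPKM with Sema4D, against 16.2, 16.1 and 16.6 FPKM without, with no overlap. Its log2 fold change was 1.45 (SE 0.044, limma adjusted p = 5.01e-08), the 244th largest rise of all genes tested, and the ratio of means was 2.84. Zfp36, the gene of tristetraprolin, the family's best studied decay factor (ENSMUSG00000044786.6, chromosome 7, 28376784 to 28380253, minus strand), read 13, 12.7 and 12.7 FPKM with Sema4D, against 9.28, 9.83 and 8.77 FPKM without. These groups were also apart, by a smaller step (0.43, SE 0.048, limma adjusted p = 0.000137, ratio of means 1.38). Among all genes tested this was the 1080th largest rise.

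Zfp36l2 (chromosome 17, 84183931 to 84187947, minus strand), the most abundant of the 10 genes in control libraries, read 50.1, 51.0 and 54.4 FPKM with Sema4D, against 53.9, 51.1 and 51.4 FPKM without. The groups overlapped, and the log2 fold change was -0.01 with a 95% interval of -0.10 to 0.08 (limma adjusted p = 0.89). The family's make-up shifted accordingly. Zfp36l1 held 41.7% ± 1.31 of the family's summed FPKM with Sema4D and 21.0% ± 0.629 without, and Zfp36l2 held 46.7% ± 1.36 and 67.1% ± 0.773 (SD, n = 3). The share of Zfp36 was 11.6% ± 0.427 with Sema4D and 12.0% ± 0.704 without. The family sum averaged 111 ± 3.85 FPKM with Sema4D and 77.7 ± 1.44 FPKM without.

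All 3 log2 ratios within the family, each of FPKM + 1, were apart between groups. The ratio of Zfp36l1 over Zfp36l2 averaged -0.16 ± 0.085 with Sema4D and -1.62 ± 0.052 without, a difference of 1.46. For Zfp36 over Zfp36l1 the means were -1.77 ± 0.070 with Sema4D and -0.75 ± 0.097 without, a difference of -1.02. For Zfp36 over Zfp36l2 they were -1.93 ± 0.075 with Sema4D and -2.37 ± 0.088 without, a difference of 0.44. Each gave p = 0.1 in the two-sided exact permutation test (adjusted p = 0.1), again the smallest this design allows.

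**Figure D3:**
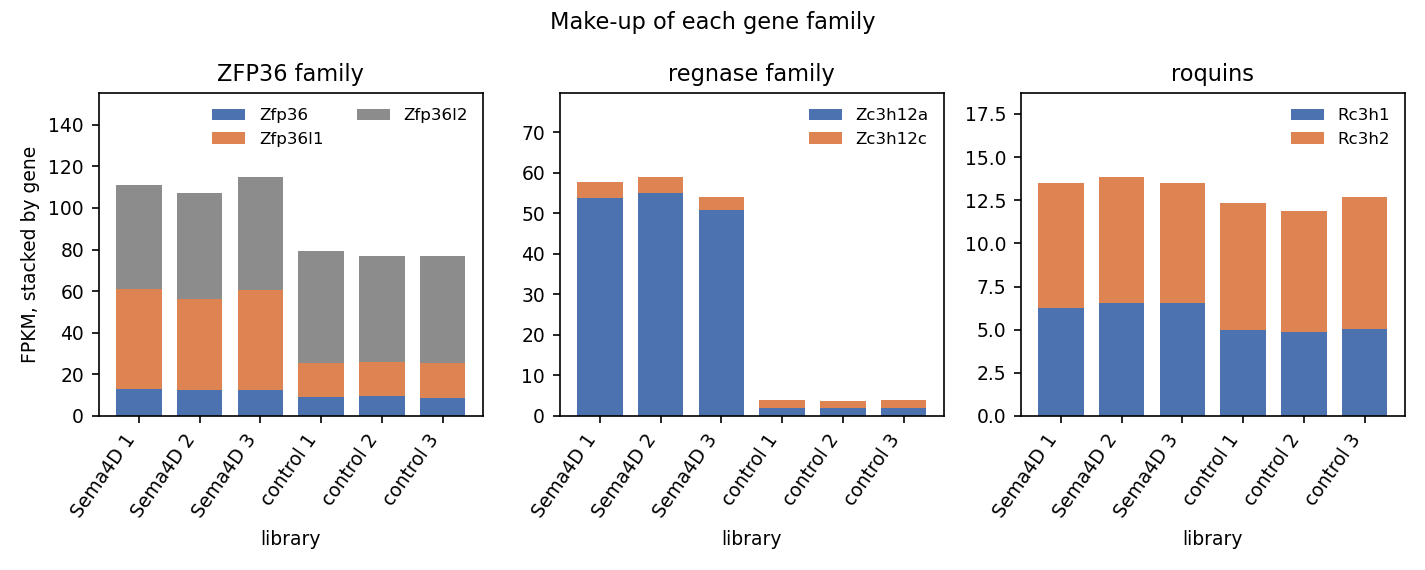
FPKM in each library stacked by gene for the ZFP36 family, the regnase family and the roquins, with Sema4D libraries left of control libraries. Zfp36l1 makes up 41.7% of the ZFP36 stack with Sema4D and 21.0% without, and Zc3h12a fills 93.6% of the regnase stack with Sema4D.

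The roquins differed from each other. Rc3h1, which encodes roquin-1 (chromosome 1, 160906418 to 160974978, plus strand), read 6.24, 6.57 and 6.55 FPKM with Sema4D, against 4.98, 4.86 and 5.06 FPKM without. The groups were apart, with a log2 fold change of 0.32 (SE 0.048, limma adjusted p = 0.000743), and against a minimum change of 1.2-fold the adjusted p was 0.608. Rc3h2, which encodes roquin-2 (chromosome 2, 37370069 to 37422903, minus strand), read 7.25, 7.27 and 6.96 FPKM with Sema4D, against 7.35, 7.01 and 7.62 FPKM without. Its groups overlapped (-0.03, 95% interval -0.14 to 0.08, limma adjusted p = 0.64). The log2 ratio of Rc3h1 over Rc3h2 averaged -0.13 ± 0.057 with Sema4D and -0.48 ± 0.028 without, a difference of 0.35 (two-sided exact permutation p = 0.1, adjusted p = 0.1).

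Of the 3 broadly acting AU-rich element binders, 1 was past the threshold, by a small step. Elavl1 (chromosome 8, 4285382 to 4325413, minus strand) read 11.3, 12.3 and 11.6 FPKM with Sema4D, against 11.3, 11.6 and 12.3 FPKM without, and its 95% interval was -0.11 to 0.11 (limma adjusted p = 0.995). Hnrnpd (chromosome 5, 99955935 to 99978938, minus strand) read 12.8, 12.9 and 12.6 FPKM with Sema4D, against 14.1, 12.3 and 12.6 FPKM without (95% interval -0.15 to 0.10, adjusted p = 0.759). Both sets of values overlapped between groups. Khsrp (chromosome 17, 57021051 to 57031522, minus strand) read 30.5, 30.1 and 31.9 FPKM with Sema4D, against 26.9, 28.7 and 28.9 FPKM without, a narrow gap (0.13, SE 0.041, limma adjusted p = 0.0346). That call was lost without control replicate 1 (adjusted p = 0.0898) or 2 (0.0505) and without Sema4D replicate 1 (0.0676) or 3 (0.105). It was also lost after quantile normalization (0.04, adjusted p = 0.399) and after the libraries were rescaled to one FPKM sum (0.05, adjusted p = 0.394).

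In order of mean FPKM in the Sema4D libraries the genes ran Zc3h12a, Zfp36l2, Zfp36l1, Khsrp, Zfp36, Hnrnpd, Elavl1, Rc3h2, Rc3h1 and Zc3h12c. Neighbours in that order overlapped in range for Zc3h12a with Zfp36l2 and for Zfp36 with Hnrnpd. In control libraries the order was Zfp36l2, Khsrp, Zfp36l1, Hnrnpd, Elavl1, Zfp36, Rc3h2, Rc3h1, Zc3h12c and Zc3h12a, where Hnrnpd with Elavl1 and Zc3h12c with Zc3h12a overlapped. Strand use in the counting was not given in the sources used here, so reads of overlapping genes on the other strand cannot be told apart from these. In the annotation 7 of the 10 genes overlap a gene on the opposite strand, among them Elavl1 with the chemokine gene Ccl25, which was under 1 FPKM in every library, and Zc3h12c with the microRNA gene Mir6244, listed at 212, 114 and 125 FPKM with Sema4D and at 141, 109 and 0 FPKM without.

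In a search for genes of like level, symbols of predicted genes, clones, small RNAs and pseudogenes were passed over, here and for Zfp36 below. Among the other tested genes, those whose levels over the 6 libraries lay nearest to Zc3h12a were Rnd1, Atp2b4, Serpina3h, Hp and Nfkbiz. Nearness was the Euclidean distance in log2(FPKM + 1), which was 0.365 for Rnd1 and 0.835 for Nfkbiz, an inducible nuclear IkappaB protein gene. Rnd1 averaged 50.9 ± 1.09 FPKM with Sema4D and 2.27 ± 0.270 FPKM without, and Nfkbiz 70.7 ± 2.26 and 2.46 ± 0.278 FPKM. Around Zfp36 the nearest were Tdrd7, Foxred2, Setdb1, Dpy19l1 and Tmem87b, at 0.166 to 0.197, with log2 fold changes of 0.37 to 0.52.

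The factors' own 3′ UTRs were searched for the nonamer TTATTTATT, the DNA form of the site that ZFP36 proteins bind, and for the pentamer ATTTA, which lies within it, on the transcript strand and with overlaps counted. For each gene the longest annotated 3′ UTR in GENCODE M21 (GRCm38) was used. Of the 10 genes, 6 held a nonamer, against 8.30% of 10784 tested genes with a 3′ UTR. The 3 ZFP36 family genes had exactly 1 each, and so did both roquins. These shares were not matched for length: the 3′ UTRs of the 10 genes ran from 774 (Zfp36) to 7181 bases (Rc3h1). The median over tested genes was 1196 bases. The genes of the sites below had log2 fold changes from -0.03 (Rc3h2) to 1.45 (Zfp36l1). The part of the element in these changes was not tested. Each line is 29 bases, 5′ to 3′ on the transcript strand, with the nonamer in capitals.
Zfp36, chr7:28376951-28376979, minus strand: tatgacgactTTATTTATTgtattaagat
Zfp36l1, chr12:80108167-80108195, minus strand: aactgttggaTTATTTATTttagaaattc
Zfp36l2, chr17:84184914-84184942, minus strand: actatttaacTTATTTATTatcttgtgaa
Rc3h1, chr1:160970043-160970071, plus strand: actttactcaTTATTTATTgagatgagga
Rc3h2, chr2:37373287-37373315, minus strand: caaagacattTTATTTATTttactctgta
Elavl1, 1 of 8, chr8:4285776-4285804, minus strand: atttatttatTTATTTATTtttatttatt

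Elavl1, whose message overlapped between groups, held 8 nonamers, some of them overlapping, starting between positions 3794 and 3840 of a 3′ UTR of 4218 bases, a number reached by 7 tested genes (0.0649%). Zc3h12a, the strongest responder, held no nonamer and 3 pentamers in 856 bases, and Zc3h12c no nonamer and 14 pentamers in 4062 bases. Khsrp and Hnrnpd held no nonamer. Per kilobase of 3′ UTR the 10 genes had 0.609 (Khsrp) to 4.90 (Zfp36l1) pentamers, against a median of 1.34 over tested genes, and 9 of the 10 were above that median. A match is a run of letters and not a shown binding site.

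**Figure D4:**
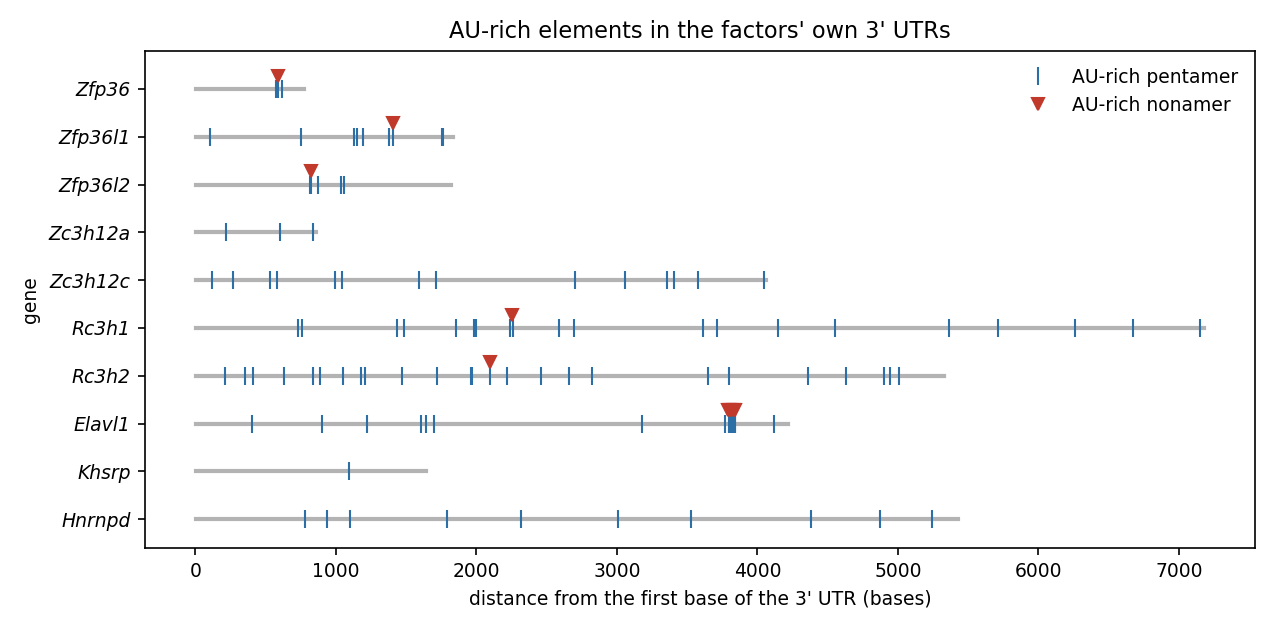
The 3′ UTR of each gene drawn to scale as a grey line from its first base, with AU-rich pentamers as blue ticks and AU-rich nonamers as red triangles. Single nonamers lie in the ZFP36 family genes and the roquins, and the 8 of Elavl1 lie together near the end of its 3′ UTR.

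Other proteins of the pathway were read from lists assembled for this comparison, whose counts stand against 24.5% higher and 22.2% lower of all genes tested. On one FPKM sum those shares were 17.3% and 32.8%, and after quantile normalization 18.7% and 29.4%. Against a minimum change of 1.2-fold they were 8.85% and 6.09%. Of 25 other AU-rich and stem-loop binders, 19 were tested, 7 were higher and 2 lower (median log2 fold change 0.06). Arid5a, whose protein protects Il6 mRNA from regnase, read 5.86, 5.82 and 5.44 FPKM with Sema4D, against 2.54, 2.80 and 2.43 FPKM without (0.90, SE 0.062, limma adjusted p = 7.08e-06). N4bp1, another RNA-binding ribonuclease gene, rose by 0.35, Celf1 by 0.29 and the mRNA-binding protein gene Igf2bp2 by 0.24. Hnrnpc (-0.14, limma adjusted p = 0.00907) and Fubp1 (-0.17, adjusted p = 0.036) fell, and Fubp1 was not past the threshold without control replicate 1 (0.0941) or 3 (0.118) or Sema4D replicate 1 (0.0838) or 3 (0.11). The 7 rises became 4 without Sema4D replicate 1, after quantile normalization or on one FPKM sum (where 4 and 5 were lower), and the 2 falls became 1 without control replicate 1 or Sema4D replicate 1 or 3. The neuronal relatives Elavl2, Elavl3 and Elavl4, and Zfp36l3, were under the filter, as were the other regnase family genes, Zc3h12d and Zc3h12b, the second at means of 0.895 FPKM with Sema4D and 1.04 FPKM without.

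The degradation machinery had medians near that of all genes. Of 19 deadenylation genes, 6 were higher and 2 lower (median 0.06). The largest rises were in antiproliferative genes whose proteins bind the deadenylases: Btg1 read 54.8, 54.4 and 53.9 FPKM with Sema4D, against 25.2, 23.8 and 23.8 FPKM without (1.13, limma adjusted p = 4.37e-08), and Btg2 averaged 14.3 ± 0.629 FPKM with Sema4D and 8.11 ± 0.1 FPKM without. The poly(A) binding protein gene Pabpc1 rose by 0.28 and the catalytic subunit gene Cnot7 by 0.28, whereas Cnot6 (-0.12, adjusted p = 0.0277) and Cnot8 (-0.14, adjusted p = 0.0166), also catalytic subunits, fell. The 2 falls became 1 without control replicate 1 or 2 or Sema4D replicate 3, and none without Sema4D replicate 1. With a replicate block they also became 1, and with one FPKM sum 5 genes were higher and 5 lower.

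Of 16 genes of decapping and 5′ decay, 4 were higher and 1 lower (median 0.04), near the share over all genes. On one FPKM sum 2 were higher and 5 lower, after quantile normalization 2 and 4, and against a minimum change of 1.2-fold none in either direction. The 4 were led by Patl1 (0.36, limma adjusted p = 0.000188) and the decapping enzyme gene Dcp2 (0.32, adjusted p = 0.00156). Lsm4 (0.19, adjusted p = 0.0108) and Lsm2 (0.21, adjusted p = 0.0468), of the LSM ring, also rose, and Lsm5, of the same ring, fell (-0.23, adjusted p = 0.0492). Lsm2, whose groups overlapped, kept its call in 5 of 13 alternatives and lost it without control replicate 1 (0.144) or 2 (0.124) and without Sema4D replicate 1 (0.107) or 3 (0.14). On one FPKM sum and after quantile normalization neither Lsm2 (0.17 and 0.124) nor Lsm4 (0.11 and 0.0752) was past the threshold. Lsm5 was not past the threshold without control replicate 1 (0.0724) or 2 (0.0585) or without Sema4D replicate 1 (0.137), 2 (0.116) or 3 (0.0564). Of 15 genes of the exosome and 3′ decay, 2 were higher, the nuclease gene Exosc10 (0.29, adjusted p = 0.00849) and Exosc5 (0.23, adjusted p = 0.0289), none was lower, and the median was 0.04. Exosc5 was not past the threshold without control replicate 1 (0.0766) or 3 (0.0514) or Sema4D replicate 1 (0.0538) or 3 (0.0914).

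The next list held 17 genes of kinases, phosphatases, a protease and other proteins that act on or with the factors. Of these, 10 were higher and none lower (median 0.28), against 24.5% and 22.2% of all genes tested. Against a minimum change of 1.2-fold 6 were higher, and on one FPKM sum 8 were higher and 2 lower. Mapk11 passed the filter only through the Sema4D libraries, and of the other 16 genes 9 were higher (median 0.26). Ikbke, an IkappaB kinase related gene, read 21.0, 20.3 and 20.1 FPKM with Sema4D, against 6.45, 6.67 and 6.40 FPKM without (1.52, SE 0.040, limma adjusted p = 2.07e-08). Bcl10, whose protein activates the protease MALT1 that cleaves regnase and roquins, averaged 28.4 ± 0.592 FPKM with Sema4D and 16.4 ± 0.433 FPKM without (0.76, adjusted p = 7.26e-07). Mapkapk2, the kinase gene of MK2, which phosphorylates tristetraprolin, averaged 65.7 ± 2.32 FPKM with Sema4D and 41.8 ± 1.07 FPKM without (0.64, adjusted p = 2.17e-06). The phosphatase gene Dusp1, which limits p38 and so MK2, averaged 28 ± 0.182 FPKM with Sema4D and 15.6 ± 1.36 FPKM without (0.81, adjusted p = 9.59e-06). The p38 gene Mapk14 was not past the threshold (0.11, adjusted p = 0.0848, or 0.0205 without control replicate 3).

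**Figure D5:**
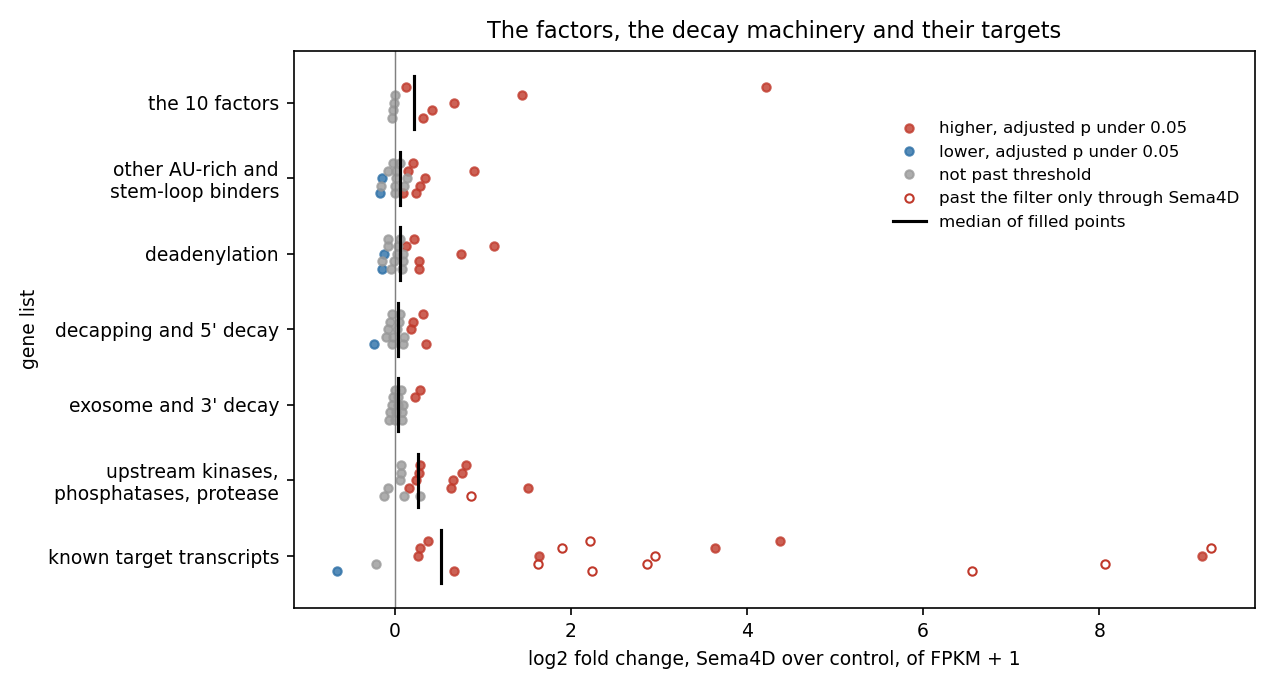
Log2 fold change of FPKM + 1, Sema4D over control, of each tested gene in the 10 factors and 6 pathway lists, coloured by call, with open points for genes that passed the filter only through the Sema4D libraries and a black bar at the median of the filled points. Medians are 0.04 to 0.06 for the other binders and the degradation machinery and 0.53 for the targets.

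Messages known as targets of these factors moved mostly up. Of 27 such genes 19 passed the filter, but 9 of them (Tnf, Il6, Il12b, Csf3, Cxcl1, Cxcl2, Ccl3, Nos2 and Lif) passed it only through the Sema4D libraries and so had to be higher there. Of the other 10, 8 were higher and 1 lower, with a median of 0.53, against 24.5% higher and 22.2% lower of all genes tested. Against a minimum change of 1.2-fold 14 of the 19 were higher, those 9 among them, and 1 was lower (8.85% and 6.09% of all genes tested). Rel, Myc (0.38) and Tfrc (0.27) lost their calls at that setting. The list was chosen with earlier results of these data known. The chemokine gene Ccl2 read 1590, 1600 and 1490 FPKM with Sema4D, against 1.75, 1.74 and 1.61 FPKM without (9.17, SE 0.038, limma adjusted p = 4.02e-13). Among the genes that passed through Sema4D alone, the nitric oxide synthase gene Nos2 was listed at 286, 269 and 255 FPKM with Sema4D, against 0, 0 and 0.0157 FPKM without. The chemokine gene Cxcl2 was listed at 101, 96.0 and 89.6 FPKM with Sema4D, against 0, 0 and 0.0684 FPKM without. All of these groups lay far apart. Ier3, a classical target of tristetraprolin, averaged 193 ± 12.6 FPKM with Sema4D and 14.6 ± 1.34 FPKM without (3.64, limma adjusted p = 2.89e-09), and Nfkbiz, cut by regnase and bound by roquin, rose by 4.38 (adjusted p = 4.04e-10). Ptgs2, which encodes an inducible prostaglandin synthase, read 6.03, 6.16 and 6.22 FPKM with Sema4D, against 1.30, 1.57 and 1.06 FPKM without (1.64, adjusted p = 1.32e-06). The cyclin gene Ccnd1 was the fall, at 28.4, 31.0 and 29.1 FPKM with Sema4D, against 46.8, 45.8 and 47.7 FPKM without (-0.65, adjusted p = 3.47e-06). Fos was not past the threshold (-0.21, adjusted p = 0.0968), but was without control replicate 1 (0.0491). Rel was higher narrowly (0.29, adjusted p = 0.039), and lost that call without control replicate 2 (0.117) or 3 (0.109) or Sema4D replicate 1 (0.0722), 2 (0.0753) or 3 (0.101).

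Among low cytokine messages, Tnf was listed at 2.0, 2.48 and 2.14 FPKM with Sema4D, against 0.0531, 0.0410 and 0 FPKM without. Il1b, under the filter, was listed at 2.14, 1.71 and 1.53 FPKM with Sema4D and at 0 in all 3 control libraries. Csf2 was listed at 0.271, 0.0726 and 0.481 FPKM with Sema4D and at 0 in all 3 control libraries. The T cell messages Il2 and Icos, bound in lymphocytes by these factors, were at 0 and under 1 FPKM.

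Of the 27 target genes, several of them known for AU-rich elements, 11 held a nonamer (40.7%). The sites below were chosen after values were seen, so the spread of responses among them follows from that choice. The part of the nonamer in these responses was not tested. Cxcl1, Cxcl2, Tnf and Lif passed the filter only through the Sema4D libraries. Cxcl1 read 1000 to 1090 FPKM with Sema4D and 0.544 to 0.809 FPKM without. Log2 fold changes were 9.27 for Cxcl1, 6.56 for Cxcl2, 1.90 for Lif, 1.64 for Ptgs2, 1.63 for Tnf and 0.68 for Vegfa. Rel rose narrowly and Fos was not past the threshold. The letters are written as above.
Cxcl1, 1 of 2, chr5:90892615-90892643, plus strand: atttatgtatTTATTTATTccacaaagtg
Cxcl2, 1 of 4, chr5:90905336-90905364, plus strand: atctatgtatTTATTTATTtattaattcc
Tnf, 1 of 5, chr17:35199671-35199699, minus strand: tatttatttaTTATTTATTtatttgctta
Ptgs2, chr1:150105790-150105818, plus strand: ctgaccatatTTATTTATTtatgtgaaga
Lif, 1 of 2, chr11:4272039-4272067, plus strand: aaaggggcctTTATTTATTatttaaaact
Vegfa, chr17:46017166-46017194, minus strand: ttgttatcatTTATTTATTggtgctactg
Rel, chr11:23737834-23737862, minus strand: ctcccagactTTATTTATTttttttagct
Fos, chr12:85477103-85477131, plus strand: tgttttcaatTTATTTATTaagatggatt

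Among the 10784 tested genes with a 3′ UTR, the share called differed by a few percentage points with a nonamer. Of 895 tested genes with at least 1 nonamer, 27.8% were higher and 20.3% lower with Sema4D, against 24.9% higher and 22.8% lower of 9889 genes with none, and the median log2 fold change was 0.01 in both. Genes with a nonamer had longer 3′ UTRs (median 2421 bases against 1117). Among genes with 3′ UTRs over 1196 bases, the median of tested genes, 28.2% of those with a nonamer and 26.8% of those without were higher. Rises of over 2-fold in FPKM + 1 were seen in 4.47% of genes with at least 1 nonamer and in 3.35% of genes with none. Falls of that size were seen in 1.01% and 0.961%. Of the 198 genes with at least 2, 6.06% rose and 1.52% fell this far, and of the 30 with at least 4, 3 rose and 1 fell. These classes are nested. The rises include Tnf (5 nonamers), Cxcl2 (4), Cxcl1 (2) and Lif (2). These 4 genes passed the filter only through the Sema4D libraries and so had to be higher. On one FPKM sum 182 of the nonamer genes were higher and 282 lower, so the balance of the calls turned. It turned over all genes tested as well, to 17.3% higher and 32.8% lower. No test was run on these shares, and low genes that passed the filter through the Sema4D libraries are among them.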

How the data were processed

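The authors deposited FPKM values for 24346 symbols, 1 column per library and none outside the series. Per the submitters' processing notes, the tools were Cufflinks 2.2.1, TopHat2 2.0.13, SAMtools 0.1.19 and Bowtie2 2.2.3, with mm10. Their roles, the annotation, the strand setting and any scaling are not given in the sources used here.

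Values were transformed to log2(FPKM + 1), which understates changes of low genes. The 11603 genes averaging 1 FPKM or more were fitted with limma 3.58.1 in R 4.3.3 (eBayes with a trend, two-sided, Benjamini-Hochberg over all). The fit was tested on simulated data. There it called 62% of true 1.25-fold changes, 90% of 1.5-fold, 94% of 2-fold and 98% of 4-fold, and 0.0965% of unchanged genes. Changes were set on FPKM + 1 and in few genes, so these shares need not hold for the real data. Depth was estimated from 1681 genes with 1 transcript over 2000 bases: the share of low values at a whole fragment number (tolerance 0.15) was 77.0% to 82.8%, too few to recover counts. Ratios within families used exact permutation tests (scipy 1.17.1, Python 3.11.15). Positions and 3′ UTRs came from GENCODE M21.

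The genes and lists were chosen with earlier results of these data known. Named were all 10 genes and, from each list, up to 4 genes of smallest p with groups apart and those few that moved against the rest. Zc3h12b, Lsm2, Mapk14, Adgre1, the targets other than Ccl2, Nos2, Cxcl1, Cxcl2 and Ccnd1, and the printed target sites were chosen after values were seen. Alternatives were another pseudocount (0.1), other filters, a common FPKM sum, quantile normalization, a replicate block, a minimum change of 1.2-fold and leaving out each library.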

Additional observations from a re-analysis of the deposited data

How the results depend on the processing

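Of the 10 genes, Zc3h12a, Zfp36l1, Zfp36, Zfp36l2, Rc3h2, Elavl1 and Hnrnpd kept their call in all 13 alternatives and Zc3h12c in all 12 that tested it (its mean is under 5 FPKM). Log2 fold changes ran from 4.15 to 4.73 for Zc3h12a, 1.37 to 1.5 for Zfp36l1, 0.61 to 0.89 for Zc3h12c and 0.35 to 0.46 for Zfp36. Rc3h1 lost its call only against a minimum change of 1.2-fold and Khsrp lost its call in 7 alternatives. Leaving out 1 library gave 5 to 6 higher genes and none lower, and the 5 within-family ratios kept their direction. The labels give same-numbered libraries no link beyond the number. Correlations of their deviations from group means were 0.14, -0.0809 and -0.0544, and not every library correlated best with its own number. With 3 libraries per group these values cannot show whether the libraries were paired. A replicate block changed no call among the 10 genes.

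Calls over all genes were 52.4% higher as deposited, 38.8% after quantile normalization and 34.5% on one FPKM sum, where the median of all genes moved to -0.0486 and -0.0678. Counts below at these 2 settings and against a minimum change of 1.2-fold stand against the shares of all genes tested at the same setting. These shares were 17.3% higher and 32.8% lower on one FPKM sum and 18.7% and 29.4% after quantile normalization. Against a minimum change of 1.2-fold they were 8.85% and 6.09%. On one FPKM sum, other binders had 4 higher and 5 lower, deadenylation 5 lower, decapping 2 higher and 5 lower, exosome 1 higher and 1 lower, upstream genes 2 lower and nonamer genes 282 lower. After quantile normalization, other binders had 4 higher and 4 lower, deadenylation 4 lower, decapping 2 higher and 4 lower, exosome 1 higher and upstream genes 1 lower. Against a minimum change of 1.2-fold, other binders had 1 higher and 0 lower, deadenylation 2 and 0, decapping 0 and 0 and exosome 0 higher, upstream genes 6 higher, and nonamer genes 104 higher and 50 lower. For the remaining settings the shares over all genes are not given here, so the counts that follow have no such background. With no filter, other binders had 1 lower, decapping 0 lower and exosome 1 higher. With a replicate block, other binders had 1 lower, deadenylation 1 lower and decapping 0 lower. With a mean of at least 5 FPKM, 9 of the 10 targets tested were higher. Leaving out 1 library gave 4 to 7 higher and 1 to 3 lower for other binders, 0 to 2 lower for deadenylation, 0 to 1 lower for decapping, 1 to 2 higher for exosome, 0 to 1 lower for upstream genes and 1 to 2 lower for targets. The cause of these shifts was not tested.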
